A study of Homo sapiens with 20 samples.

Results

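Of the 36076 rows of the expression table, 230 were zinc finger genes of chromosome 19. They were taken as the rows whose symbol was ZNF followed by digits alone and which at least 1 of the 8 ATAC peak lists placed on chromosome 19. They carried 229 symbols, since ZNF724 stood at 2 Ensembl identifiers, and 229 of the 230 rows were protein coding in the GENCODE annotation of GRCh37. The table held 473 rows with a ZNF-number symbol. The annotation put 240 of them on chromosome 19, and 10 of these, ZNF761, ZNF700 and ZNF816 among them, were named in no peak list and so were not members.

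The study exposed human lung cancer cell lines to decitabine (DAC), a cytidine analogue that is built into DNA and traps DNA methyltransferases (DNMTs), so that methylation is lost as cells divide. Messenger RNA was sequenced in A549, CL1-0, CL1-5, PC9, H1299 and H1792. Open chromatin was mapped in 4 of these lines (A549, H1299, CL1-5 and PC9) by Omni-ATAC-seq. DAC-treated cells received 100 nM for 72 h and then grew for 3 days without drug, whereas Mock cells received PBS. Every line had 1 library per treatment and assay, so that within a line there was no replicate, and over lines the replicate was the line. All 6 are established lines grown in culture, and CL1-5 is an invasive subline of CL1-0. Both were counted as separate lines throughout, though their shared origin means that they are not fully independent. In bulk samples of this kind, fewer cells that express a gene and less RNA per cell cannot be told apart. Among the epithelial markers, KRT8 was at 1578 FPKM (fragments per kilobase of transcript, scaled to the depth of the library) in Mock A549 and at 0.154 in Mock CL1-0, where EPCAM, KRT18 and KRT19 were also at 0.151 or lower, so that these defining markers were near absent from CL1-0. In Mock, VIM ranged from 4.77 FPKM in PC9 to 481 in H1299. The leukocyte genes PTPRC and CD3E stayed at or below 0.0759 FPKM in every library.

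Most zinc finger genes of chromosome 19 encode proteins with an N-terminal KRAB domain and an array of C2H2 zinc fingers. The fingers read DNA, very often within transposable elements, and the KRAB domain recruits the corepressor TRIM28, which brings in SETDB1, HP1 proteins and histone deacetylases. The genes arose by tandem duplication and lie in clusters, many start from CpG-rich promoters, and promoter methylation of such genes is known from many carcinomas.

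Mapped reads per mRNA library, recovered from the FPKM, ranged from 22234485 to 25303899 outside H1299. The H1299 libraries held 59735913 in Mock and 52634234 after DAC. Among genes with few reads, 85.5% and 81.9% of the read numbers there were even, against 39.2% to 41.5% elsewhere. A read in H1299 therefore did not weigh the same as in the other lines. Its median FPKM over all genes was 0.00776 in Mock, against 0.143 to 0.191 in the other 5 lines. In the ATAC data the names written in the peak lists were exchanged between CL1-5 and PC9. PC9 mRNA held 420 genes that CL1-5 mRNA lacked. Mock peaks lay at the promoters of 87.6% of them under the label CL1-5, and of 53.3% under the label PC9. For the 349 genes found the other way round the shares were 62.8% and 81.9%. Those 4 libraries are therefore called "labelled CL1-5" and "labelled PC9", and values that join them to mRNA are given both ways.

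Promoter sequences were available from RefSeq (GRCh38.p14) for 199 of the 229 symbols. Shown here are the 250 bases before the start site of 6 members, with every CpG in capitals, because the members' CpG-rich starts are the DNA on which methylation and the ATAC peaks described further on bear. They were chosen after the values were seen. ZNF560 was silent in Mock of 5 lines and had more reads after DAC in each of them, ZNF880 and ZNF528 gained reads and a promoter peak in A549, ZNF85 had no read in A549 before or after DAC, ZNF146 was the most abundant member, and ZNF358 had the largest negative change of the members that moved alike in 5 lines. Each stretch matched 1 place on chromosome 19 of GRCh37 exactly: ZNF560 at chr19:9609293-9609542 on the minus strand, and on the plus strand ZNF880 at chr19:52872926-52873175, ZNF528 at chr19:52900852-52901101, ZNF85 at chr19:21105807-21106056, ZNF146 at chr19:36705758-36706007 and ZNF358 at chr19:7580739-7580988.
ZNF560: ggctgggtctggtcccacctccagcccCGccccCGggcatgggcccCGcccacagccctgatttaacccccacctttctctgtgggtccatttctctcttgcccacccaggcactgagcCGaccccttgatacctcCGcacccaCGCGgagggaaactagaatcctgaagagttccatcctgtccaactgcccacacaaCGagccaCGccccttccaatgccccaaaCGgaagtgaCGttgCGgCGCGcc
ZNF880: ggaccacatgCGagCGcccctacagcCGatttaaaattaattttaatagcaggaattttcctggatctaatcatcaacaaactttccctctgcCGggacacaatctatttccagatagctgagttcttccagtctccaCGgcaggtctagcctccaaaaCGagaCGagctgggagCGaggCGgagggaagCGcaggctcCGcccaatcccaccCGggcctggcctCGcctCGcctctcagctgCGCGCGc
ZNF528: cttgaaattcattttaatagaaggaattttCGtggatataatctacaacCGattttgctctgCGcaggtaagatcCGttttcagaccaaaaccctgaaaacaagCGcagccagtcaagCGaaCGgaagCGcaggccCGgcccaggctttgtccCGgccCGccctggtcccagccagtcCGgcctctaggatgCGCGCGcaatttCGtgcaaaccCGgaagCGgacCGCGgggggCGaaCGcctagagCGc
ZNF85: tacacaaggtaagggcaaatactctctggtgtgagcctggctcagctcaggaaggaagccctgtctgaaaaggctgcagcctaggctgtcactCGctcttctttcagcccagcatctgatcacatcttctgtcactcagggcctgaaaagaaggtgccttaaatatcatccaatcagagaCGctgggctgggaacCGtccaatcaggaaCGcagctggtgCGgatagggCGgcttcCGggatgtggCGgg
ZNF146: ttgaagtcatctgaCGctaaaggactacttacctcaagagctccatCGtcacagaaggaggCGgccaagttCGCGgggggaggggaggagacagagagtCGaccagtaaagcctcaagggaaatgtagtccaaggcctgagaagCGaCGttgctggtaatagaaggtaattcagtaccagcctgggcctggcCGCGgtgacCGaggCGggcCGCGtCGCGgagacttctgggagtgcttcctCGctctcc
ZNF358: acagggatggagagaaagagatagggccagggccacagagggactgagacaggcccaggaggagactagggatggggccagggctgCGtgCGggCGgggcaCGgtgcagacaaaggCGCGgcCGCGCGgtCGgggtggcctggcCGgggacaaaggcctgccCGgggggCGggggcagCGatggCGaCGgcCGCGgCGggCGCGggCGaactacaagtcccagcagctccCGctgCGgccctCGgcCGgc
The stretch of ZNF85 held 8 CpGs, that of ZNF560 held 14, those of ZNF880 and ZNF146 held 17 each, ZNF528 had 23 and ZNF358 had 26.

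The first question was how many members were silent before treatment. A member was called silent in a line when its Mock FPKM was under 0.1 there and at least 1 in Mock of another line. By this count 59 of the 230 members were silent in A549, or 25.7%, where 4.82% of all genes in the table met the same definition. In H1792, 37 were silent (16.1%, against 4.91% of all genes), and in PC9 17 (7.39%, against 4.8%). The other lines had few: 9 in CL1-0 (3.91%, against 5.49%), 8 in CL1-5 (3.48%, against 4.3%) and 4 in H1299 (1.74%, against 9.2%). The mean over 6 lines was 22.3 ± 21.5 members (SD, n = 6), so that the spread between lines was nearly as large as the mean. Neither the 221 ZNF-number genes of other chromosomes nor the other 1141 genes listed on chromosome 19 showed this in A549, with 9 (4.07%) and 54 (4.73%) silent. In H1792 the other chromosome 19 genes stood at 9.03% and the ZNF genes elsewhere at 3.17%.

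**Figure D1:**
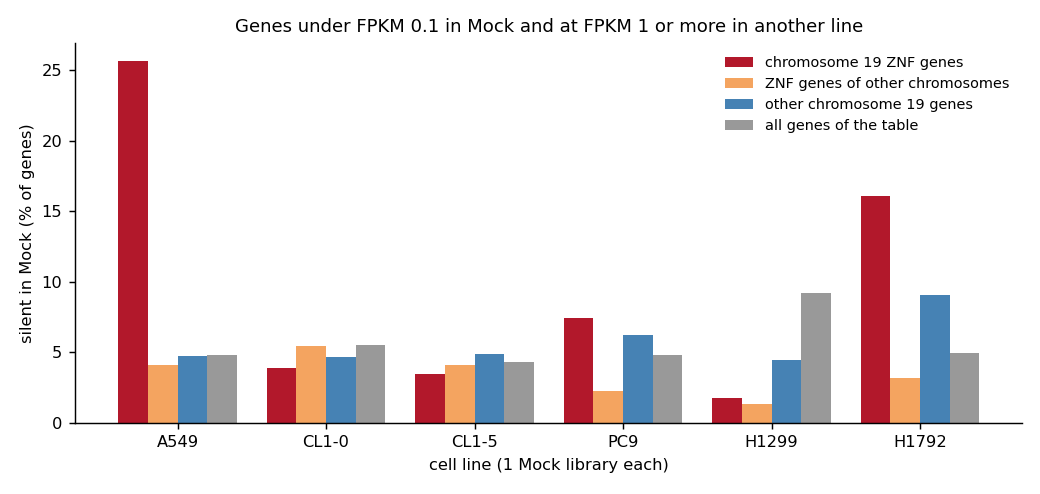
Share of genes silent in Mock (y axis, percent of the genes in a set) in each of 6 lung cancer lines (x axis), for the chromosome 19 zinc finger genes, ZNF genes of other chromosomes, other chromosome 19 genes and all genes of the table. The members' bar stands at 25.7% in A549 and 16.1% in H1792, and the other 3 bars stay between 4.07% and 4.82% in A549.

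The median level of the members was lowest in A549 too. It was 0.354 FPKM in Mock A549 and between 1.15 and 1.68 in Mock of the other 5 lines. In all, 67 of the 230 members were silent in at least 1 line, beside 5168 of the 36076 genes of the table. Of the 67, 62 were silent in A549 or H1792. The lists overlapped: 34 members were silent in both A549 and H1792, which was 57.6% of the A549 list and 91.9% of the H1792 list. The 9 silent members of CL1-0 were all on the A549 list, as were 16 of the 17 of PC9. No such overlap was computed over all genes, so that these shares do not set the members apart. At the other end, 54 members were at 1 FPKM or above in Mock of all 6 lines and 2 were under 0.1 in all 6.

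Silence was the rule in several lines for a small set. Of the 67, 31 were silent in 1 line, 19 in 2, 9 in 3, 2 in 4 and 6 in 5. The 6 silent in 5 lines were ZNF560, ZNF534, ZNF208, ZNF676, ZNF99 and ZNF728. All but ZNF560 reached 1 FPKM in H1299 alone. ZNF208, a large KRAB zinc finger gene of the pericentromeric cluster, stood at 1.75 FPKM in Mock H1299, at 0 in A549, CL1-0 and H1792, and at 0.00537 and 0.00701 in CL1-5 and PC9. Its neighbour ZNF676 was at 2.06 FPKM in H1299 and at 0 in 4 lines. ZNF728 had 208 reads in H1299 and 0 in Mock of every other line. The exception, ZNF560 (ENSG00000198028), stood at 3.32 FPKM in PC9, at 0.026 in CL1-5, at 0.0123 in H1299 and at 0 in the remaining 3 lines.

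The most abundant members were not among these. ZNF146, which encodes a protein made of zinc fingers without a KRAB domain, ranged from 21.4 FPKM in CL1-0 to 43.5 in A549. ZNF581 ranged from 10.3 to 29.6 and ZNF428 reached 31.6 in Mock H1299. The members of lowest mean level were ZNF541, ZNF709 and ZNF536, none of which passed 0.162 FPKM in any Mock library. Members of a duplicated family can share reads. In the annotation, 20 of the 230 had over 20% of the 75-base stretches of their transcripts in another gene too, 5 of them among the 59 of A549, and their values are uncertain. ZNF724, ZNF781, ZNF844, ZNF98, ZNF208 and ZNF709 were of this kind. The median member shared 0.358%.

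Many of the silent members lay in the same stretches of the chromosome. Members were put in order, and a gap of over 500 kb between neighbouring starts divided groups. This gave 21 groups, of which 8 held at least 10 members and 208 members in all, while 10 were single genes. In A549, 26 of the 36 members from ZNF101 to ZNF254 (chr19:19779605-24312770, next to the centromere on the short arm) were silent. From ZNF175 to ZNF331 (chr19:52074536-54083523) 15 of 35 were silent, and from ZNF653 to ZNF791 (chr19:11594242-12750912) 9 of 23. These 3 groups held 50 of the 59 silent members of A549 and 26 of the 37 of H1792, with 94 of all 230 members. In contrast, 0 of the 22 members from ZNF575 to ZNF180 (chr19:44029649-45004576) and 0 of the 39 from ZNF264 to ZNF446 (chr19:57702868-58992597) were silent in A549. The median Mock level in A549 was 0.0234 FPKM in the ZNF101 to ZNF254 group and 0.746 in the ZNF264 to ZNF446 group. Neighbours share sequence and position, so that they are not independent observations, and no test was made over them.

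**Figure D2:**
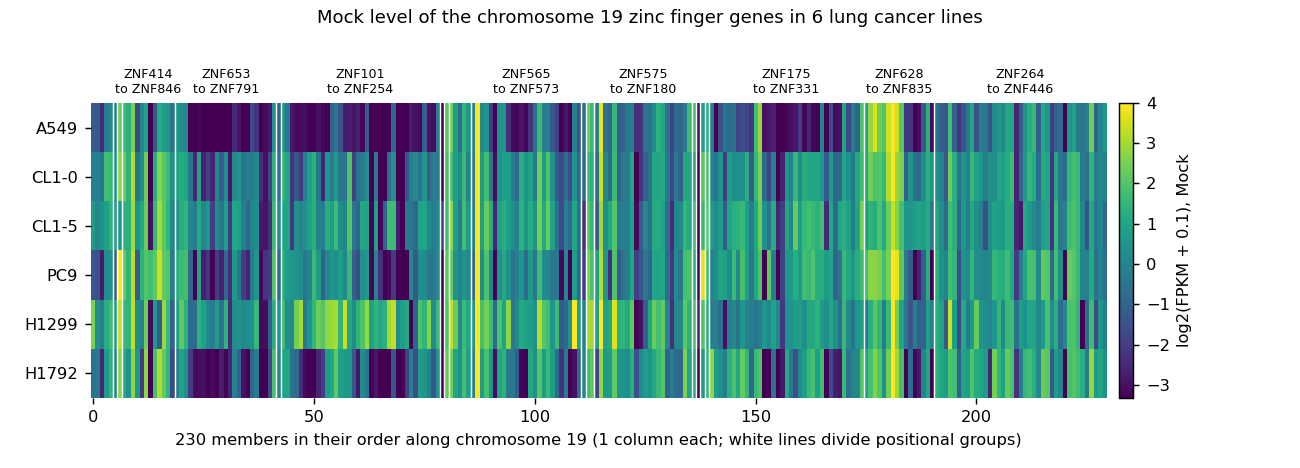
Mock level of the 230 members, in log2(FPKM + 0.1) by colour, in their order along chromosome 19 (x axis, 1 column a gene) and in 6 lines (y axis). Long dark runs stand in the A549 row at ZNF653 to ZNF791, ZNF101 to ZNF254 and ZNF175 to ZNF331, partly repeated in the H1792 row, and the ZNF264 to ZNF446 group has none that spans it.

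Some of the silent genes have known targets. ZNF91 and ZNF93 are KRAB zinc finger genes known to repress SVA and L1 transposons, and were looked up for that reason. ZNF91 had 3 reads in Mock A549 (0.0135 FPKM) and between 0.587 and 3.74 FPKM in Mock of the other lines. ZNF93 had 2 reads in Mock A549 and 11 in H1792, against 7.90 FPKM in H1299. ZNF808, known for a role in development of the pancreas, had 1 read in Mock A549 and 157 to 385 in Mock of the other 5 lines.

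Over the whole set, the annotated gene starts of the silent members were poorer in CpG than those of the members expressed everywhere. Within 2 of the 3 groups rich in silent members their ratio of observed over expected CpGs was not below that of the rest. By the median number of CpGs this held from ZNF653 to ZNF791 alone. In the window from 250 bases before to 50 after the annotated GRCh37 gene start, the 230 members had a median of 18 CpGs, against 9 for all genes of the table and 19 for its protein-coding genes. The annotated start can differ from the RefSeq start used for the printed stretches. ZNF358 had 9 CpGs in this window and 26 in its printed stretch, so that a window may lie off the promoter. The observed over expected CpG ratio had a median of 0.613 in the 59 members silent in A549, and of 0.789 in the 54 members at 1 FPKM or above in all lines. The classes were drawn from the levels, so that the ratio is a description. It moved with position: the median was 0.464 over the whole ZNF101 to ZNF254 group and 0.823 over the ZNF175 to ZNF331 group. Within the first group it was 0.449 for silent members and 0.530 for the rest, within the other 0.853 and 0.811, and from ZNF653 to ZNF791 0.605 and 0.560. The median CpG numbers, in the same order, were 10 and 12, 20 and 22, and 16 and 14. The 25 silent A549 members with 3 reads or fewer after DAC had a median of 10 CpGs (ratio 0.452). The 34 with over 3 reads after DAC had 17.5 (ratio 0.693). Of these 34, 20 had 3 reads or fewer in Mock and the rest were over 3 already, so that the contrast mixes Mock level with change.

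Next, the silent members were followed through decitabine. Because the same Mock library chose them and served as baseline, these values are a description with no test. Most of the silent members of A549 had a few more reads after DAC. None reached 1 FPKM, whereas 143 of all 1738 silent genes of A549 did. Their summed reads went from 135 to 577. Reads were more in 42 of 59, fewer in 2 and equal in 15. By FPKM 42 were higher too (71.2%, beside 72.3% of all silent genes of A549) and 4 lower. Of the members at 3 reads or fewer, 44.4% passed that level, beside 43.1%, so that neither share set the members apart. In Mock 45 of the 59 had 3 reads or fewer and 22 had 0, whereas after DAC 34 had over 3 reads and 14 had 0. The silent member with the most reads after DAC, ZNF506, had 45 (7 in Mock).

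A silent member was counted as regained when its log2(FPKM + 0.1) was at least 1 higher and it had over 3 reads after DAC. In A549, 8 of 59 were regained, or 13.6%, where 28.8% of all silent genes of A549 were. The regained members there were ZNF560, ZNF506, ZNF708, ZNF649, ZNF880, ZNF701, ZNF468 and ZNF471. H1792 gave 3 of 37 (all genes 16.9%) and PC9 5 of 17 (all genes 18.1%). In CL1-5 3 of 8 were regained (all genes 15.3%), in CL1-0 1 of 9 (9.74%) and in H1299 2 of 4 (11.2%). The mean was 24.9% ± 16.8 (SD, n = 6 lines), beside 16.7% ± 6.75 for all silent genes. It counts H1299, with 4 silent members, as much as A549, with 59. In A549 and H1792, which had the most silent members, the share was below that of all genes. The mean moved to 43.4% with a pseudocount of 0.01, and no all-gene mean is given at that setting. ZNF560 in H1299, at 1.62 FPKM, was the single silent member that reached 1 FPKM in any line. Among all silent genes, from 38 (CL1-0) to 143 (A549) per line did.

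ZNF560 had the largest mean change of all members higher in 5 of 5 lines. It went from 0 to 14 reads in A549, from 0 to 27 in CL1-0, from 2 to 65 in CL1-5, from 2 to 243 in H1299 and from 0 to 44 in H1792, and from 196 to 273 in PC9, where it was already expressed. Every line was higher after DAC. By FPKM, both values of PC9 (3.32 and 4.16) lay above those of all other lines, of which H1299 after DAC was the highest at 1.62. Over the 5 lines the study analyses together (all but H1792) the log2 change was 2.19 ± 0.49 (SE), with an adjusted p of 0.202 (limma, blocked by line). The change was positive in 6 of 6 lines and did not pass the adjusted threshold.

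For the other silent genes the values after DAC varied from line to line, and the difference between lines was not tested. ZNF880 went from 3 to 27 reads in A549 and from 0 to 29 in H1792, and went from 346 to 380 in PC9, where it was expressed. ZNF534 went from 0 to 18 reads in PC9 and from 0 to 9 in H1792, and had 2 reads after DAC in A549 and in CL1-0. ZNF471, reported in the literature as methylated in several carcinomas, went from 3 to 36 reads in A549 and from 8 to 38 in PC9, and from 7 to 8 in H1792. ZNF208 reached 25 reads in CL1-5 and 15 in PC9, from 1 in each, and had 4 or fewer after DAC in A549, CL1-0 and H1792. ZNF708 went from 4 to 33 reads in A549 and from 2672 to 4299 in H1299. By FPKM after DAC, ZNF626 in CL1-0 (0.0694 to 0.156) and ZNF671 in CL1-5 (0.0418 to 0.222) were second among the silent members of their line, and ZNF404 in PC9 (0.0970 to 0.314) was first. By reads the first in PC9 was ZNF471, followed by ZNF667 (0 to 32). ZNF98, ZNF85, ZNF728 and ZNF69 had 0 reads in A549 both before and after DAC.

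**Figure D3:**
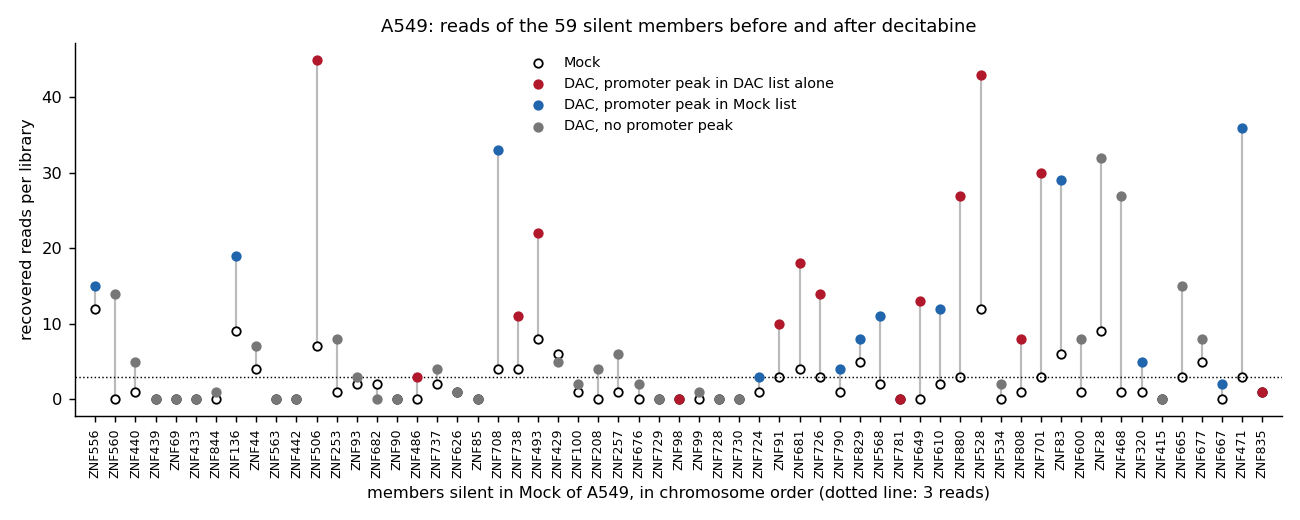
Recovered reads (y axis) of the 59 members silent in Mock of A549 (x axis, in chromosome order), in the Mock library as open circles and in the DAC library as filled circles, coloured by whether a promoter peak was listed. Most Mock points lie at or under 3 reads, and the highest DAC points are ZNF506 with 45 and ZNF528 with 43 reads, both with a promoter peak in the DAC list alone.

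The positional groups had different sums after DAC. In A549 the 15 silent members from ZNF175 to ZNF331 went from 47 to 259 reads in sum, 13 of them had over 3 reads after DAC, and 4 were regained. The 26 from ZNF101 to ZNF254 went from 50 to 195 reads with 12 over 3 reads. The 9 from ZNF653 to ZNF791 went from 14 to 32 reads, and 5 of these 9 had none after DAC.

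Across all tested members, change was mostly upward and small. A gene was tested when its mean FPKM over the 10 libraries of the 5 lines was at least 0.1, which held for 224 of 230 members and 22603 genes in all. The mean log2 change over 5 lines was above 0 for 195 of 224 members, or 87.1%, beside 58.8% of all genes tested. Its median was 0.28, against 0.07 for all genes, 0.08 for ZNF genes elsewhere and -0.02 for other chromosome 19 genes. No member passed an adjusted p of 0.05 by limma in either direction, while 27 genes of the whole table did as higher (0.119%) and none as lower (0.0%). At an unadjusted p under 0.05 by limma, 41 members were higher (18.3%, against 8.07% of all genes tested) and 6 lower (2.68%, against 4.4%). With limma voom on the recovered reads 44 were higher at that level (19.6%, against 9.06%) and 0 were called after adjustment. In all 5 lines alike, 54 members were higher (24.1%, against 6.76%) and 9 lower (4.02%, against 4.39%). Scaling mattered: quantile normalization lowered the median to 0.12 and left 10 members higher (4.46%, against 5.25% of all genes) and 11 lower at the unadjusted threshold, so that the members' share of higher genes was then below the background. Without H1299, 16 were higher (7.37%, against 6.97%), and without CL1-0 17 (7.56%, against 6.96%), both near the background. Without A549, 25 were higher (11.1%, against 5.44%). Dropping the cell line term left 0 in either direction, against 1.45% of all genes higher.

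**Figure D4:**
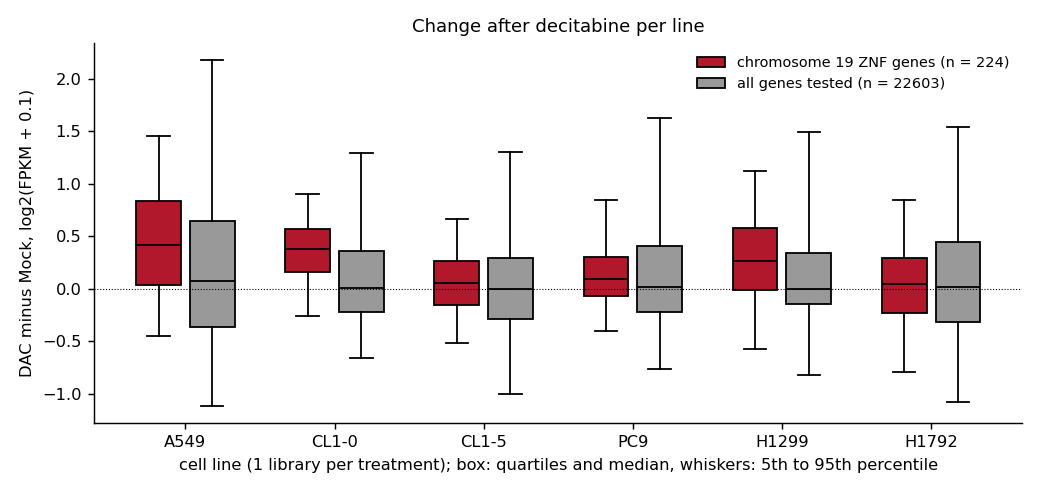
Change after decitabine, DAC minus Mock in log2(FPKM + 0.1) (y axis), in 6 lines (x axis), for the 224 tested members and all 22603 genes tested. Boxes give quartiles and median, whiskers the 5th to 95th percentile, and the members' medians are 0.41 in A549, 0.38 in CL1-0 and 0.27 in H1299 and at most 0.09 in the other 3 lines.

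The 3 lines with the larger shift differed in its form. The median change of the members was 0.41 in A549, 0.38 in CL1-0, 0.27 in H1299, 0.09 in PC9, 0.06 in CL1-5 and 0.05 in H1792, against 0.07 or less for all genes in each line. Of the 224 members, 170 were higher after DAC in A549 (75.9%, against 53.5% of all genes tested), 189 in CL1-0 (84.4%, against 50.5%) and 163 in H1299 (72.8%, against 43.4%). The numbers were 146 in PC9 (65.2%, against 51.0%), 133 in CL1-5 (59.4%, against 49.2%) and 120 in H1792 (53.6%, against 51.6%). Though CL1-0 had the widest upward shift by this count, 6 of its members were at least 2-fold higher (2.68%, against 7.6% of all genes tested). A549 had 42 members at least 2-fold higher (18.8%, against 15.5%), and 31 of these were among the 102 members between silence and 1 FPKM (30.4%, against 26.7% of all genes of that level). Of the 63 members at 1 FPKM or above 3 were 2-fold higher (4.76%, against 4.31%), and of the 59 silent members 8 (13.6%, against 38.5%). By position, 15 of the 42 were in the ZNF264 to ZNF446 group and 10 in the ZNF175 to ZNF331 group. H1299 had 19 (8.48%, against 8.18%), PC9 9 (4.02%, against 10.2%), CL1-5 5 (2.23%, against 7.25%) and H1792 5 (2.23%, against 10.3%). At least 2-fold lower were 1 member in A549 (all genes 6.69%), 0 in CL1-0 (2.14%), 1 in CL1-5 (5.05%), 1 in PC9 (3.1%), 5 in H1299 (3.15%) and 4 in H1792 (5.79%). Each of these per-line values rests on 1 library against 1.

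Named genes of the A549 and H1299 shifts, chosen after their values were seen, show the sizes. ZNF304, a KRAB zinc finger gene, went from 0.425 to 1.60 FPKM in A549 (42 and 187 reads), and ZNF548 from 0.273 to 1.10. ZNF582, another gene known for promoter methylation in carcinomas, went from 9 to 73 reads in A549 and from 0 to 7 in H1792, and stood at 118 and 104 in CL1-5. In H1299 ZNF554 went from 5.83 to 30.5 FPKM and ZNF320 from 1215 to 5291 reads, whereas ZNF554 had 34 to 142 reads after DAC in the other 5 lines, from 30 to 196 in Mock.

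Among the members that were higher in 5 of 5 lines, ZNF547 (ENSG00000152433, chr19:57874845-57890933) had the lowest p. Its FPKM went from 0.118 to 0.343 in A549, from 0.558 to 1.12 in CL1-0, from 0.434 to 0.831 in CL1-5, from 0.229 to 0.775 in PC9 and from 0.216 to 0.504 in H1299. The log2 change was 1.01 ± 0.19 (SE) with an adjusted p of 0.162 by limma, and H1792, outside the fit, went from 0.407 to 0.712. ZNF350, whose product binds BRCA1 and represses damage-response genes, had a log2 change of 0.95 (adjusted p = 0.268, limma) and went from 6 to 64 reads in H1299. Its change was least in PC9, from 1.75 to 1.82 FPKM. ZNF841 had a change of 0.81, ZNF534 of 0.74 and ZNF506 of 0.71, with adjusted p-values of 0.292 to 0.367 by limma.

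Of the 9 members that were lower in 5 of 5 lines, ZNF358 (chr19:7580178-7585911) had the largest change. It averaged 7.80 ± 5.50 FPKM before and 4.18 ± 3.58 after treatment (SD, n = 5 lines). It went from 4.89 to 1.61 in A549, from 6.43 to 4.88 in CL1-0, from 1.53 to 0.975 in CL1-5, from 15.9 to 9.96 in PC9 and from 10.2 to 3.50 in H1299. The log2 change was -0.95 ± 0.21 (SE), with an adjusted p of 0.195 by limma. H1792 went the other way, from 6.43 to 8.32. ZNF575 changed by -0.67, ZNF865 by -0.47, ZNF837 by -0.46, ZNF414 by -0.40 and ZNF653 by -0.39, and each of these 5 was higher after DAC in H1792. ZNF146 averaged 32.5 ± 10.3 FPKM before and 33.4 ± 3.90 after treatment, a log2 change of 0.10.

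No gene of the machinery that KRAB zinc finger proteins work with passed the adjusted threshold. Of 28 listed genes for TRIM28, its partners and heterochromatin factors, 27 were tested and 0 were called, 2 were higher and 1 lower at an unadjusted p under 0.05 by limma, and their median log2 change was 0.05. TRIM28, the corepressor itself, averaged 104 ± 53.4 FPKM before and 88.1 after treatment, a log2 change of -0.16 (adjusted p = 0.682, limma). SETDB1, the histone H3 lysine methyltransferase it recruits, changed by -0.09. DNMT3B, a de novo DNA methyltransferase, was higher in 5 of 5 lines with a log2 change of 0.98, at an adjusted p of 0.110 by limma. MORC3 changed by 0.48, UHRF1 by 0.39 and SUV39H1 by -0.56.

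Open chromatin at the starts of the members was compared through the listed peaks within 3000 bp of a gene start. In A549, 154 of the 230 members had such a peak in Mock and 171 after DAC, with 22 gained and 5 lost. The gain was 28.9% of the 76 members without one in Mock, beside 26.1% of all listed genes. In the library labelled CL1-5 the number went from 204 to 208, with 14 gained and 10 lost. The gain there was 53.8% of 26 members, beside 21.1%. The library labelled PC9 had 196 before and after (2 gained, 5.88%, against 26.3%), and H1299 201 and 202 (2 gained, 6.90%, against 21.9%). The mean change was 5.50 ± 7.85 members (SD, n = 4 lines), so that it was within the spread between lines. DAC lists were longer than Mock lists in every line, for example 78199 against 58734 peaks in A549. With the same number of strongest peaks taken from every list, A549 went from 150 to 156 members, with 13 gained and 7 lost.

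Silent members mostly lacked a promoter peak in A549. Of the 59, 12 had one in Mock (20.3%, against 48.2% of all silent genes listed) and 24 after DAC. A peak was gained by 15 of the 47 without one, or 31.9%, beside 31.6% of all silent genes listed, so that the gain was that of the background. With the same number of strongest peaks from every list the silent members went from 10 to 16, with 9 gained (18.4%, against 15.6%). Of the 63 members at 1 FPKM or above in A549, 60 had one in Mock (all such genes 87.7%). In the library labelled CL1-5, 4 of 8 silent members had a peak in Mock and 6 after DAC (all silent genes 68.4%), in the one labelled PC9 10 of 17 before and after (67.0%), and in H1299 2 of 4 before and after (42.8%). Of the expressed members 136 of 148 had one in the library labelled CL1-5 (all such genes 87.5%), 121 of 133 in that labelled PC9 (86.0%) and 149 of 164 in H1299 (85.5%). The difference between silent and expressed members in Mock was -47.4 ± 18.8 percentage points (SD, n = 4 lines). With the names exchanged, 8 of the 17 silent members of PC9 had a peak in Mock and 12 after DAC in the library labelled CL1-5. In the library labelled PC9, 1 of the 8 silent members of CL1-5 had one before and after. The difference was then -60.9 points, and without both lines -57.9.

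**Figure D5:**
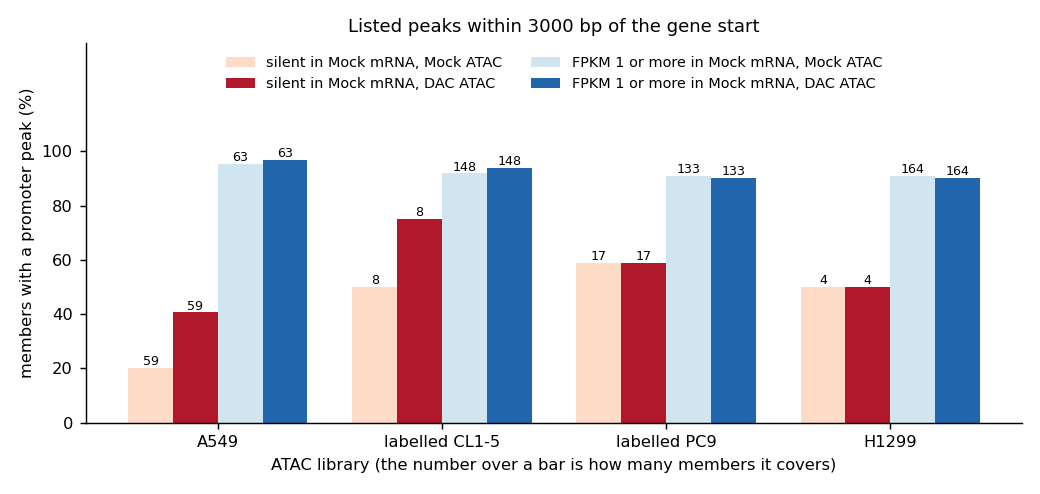
Share of members with a listed peak within 3000 bp of the gene start (y axis, percent) in 4 ATAC lines (x axis), for members silent in Mock mRNA and members at 1 FPKM or above, in Mock and in DAC libraries. The numbers over the bars count the members, and A549 has 12 of 59 silent members with a peak in Mock and 24 after DAC, beside 60 of 63 expressed members in Mock.

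In A549 the peaks and the reads could be set beside each other. The 15 silent members that gained a promoter peak (9 with equal numbers of peaks) had a median of 13 reads after DAC (range 0 to 45), and 4 of them were regained. The 9 with a peak in both lists had a median of 15 reads, the 3 that lost theirs 5, and the 32 without a peak in either list 2, with 12 of these at 0 reads. Mock medians already fell in the same order: 4 reads with a peak in both lists, 3 where gained, 1 where lost and 0 without. The contrast after DAC therefore mixes Mock level with change. ZNF98, ZNF781 and ZNF835 gained a peak while they stood at 0, 0 and 1 reads after DAC. ZNF28 and ZNF468 reached 32 and 27 reads with no listed promoter peak. By position, promoter peaks in A549 went from 11 to 19 of 36 members in the ZNF101 to ZNF254 group and from 20 to 25 of 35 in the ZNF175 to ZNF331 group, and stayed at 35 of 39 in the ZNF264 to ZNF446 group.

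The strongest gained peaks in A549 lay on gene starts. That of ZNF726 was at chr19:24097475-24098061 with a 6.32-fold enrichment over background, and the gene went from 3 to 14 reads. That of ZNF528 was at chr19:52900986-52901231 with a 5.30-fold enrichment and overlapped the stretch printed above, and its gene went from 12 to 43 reads. The peak of ZNF880 at chr19:52873020-52873444 had a 5.17-fold enrichment. The 3 starts carried peaks in Mock H1299 too, of 9.95-fold, 7.89-fold and 8.20-fold enrichment, and these genes were at 1.08, 1.80 and 1.02 FPKM there. The ZNF85 stretch was covered by a peak in the H1299, labelled CL1-5 and labelled PC9 lists and in neither A549 list, and ZNF85 was at 6.61 FPKM in Mock H1299. The ZNF560 stretch was covered in the 2 lists labelled CL1-5 alone, with 4.43-fold and 5.46-fold enrichment, whereas the expressing line by mRNA was PC9.

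A peak is listed under 1 gene, and this affects members that start next to another gene. ZNF146 appeared to gain a promoter peak in the library labelled CL1-5, of 7.80-fold enrichment, yet a peak covered its printed stretch in all 8 lists. With any peak within 1000 bp of the annotated start counted, the A549 numbers were 150 in Mock and 171 after DAC, and 10 and 22 of the 59 silent members. Of the members without a peak in Mock 30.0% then gained one, against 16.7% of all listed genes. Among silent members 15 of 49 gained one (30.6%), against 21.9% of all silent genes listed. In the library labelled CL1-5 the gained and lost members were then 6 and 1 in place of 14 and 10. ZNF571, listed as gained in that library with a 6.52-fold enrichment, was at 0.773 FPKM in Mock and 1.04 after DAC in CL1-5 mRNA, and at 0.946 and 1.23 in PC9. The gained peaks of ZNF350 and ZNF568 in the library labelled PC9 were of 3.27-fold and 3.69-fold enrichment, and those of ZNF233 and ZNF606 in H1299 of 4.03-fold and 3.05-fold.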

How the data were processed

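Messenger RNA was read in 12 libraries (Mock and DAC, 6 lines) and open chromatin in 8 (4 lines). The deposited expression table gives FPKM per gene, made by the authors together with a DESeq2 mean normalized signal, fold changes and p-values. The submitters' processing notes name TopHat2 2.1.1, BWA 0.7.17-r1188, DESeq2 1.24.0, Picard 2.21.4, SAMtools 1.9, MACS2 2.2.5 and ChIPseeker 1.20.0, and the hg19 build. The authors' fold changes and p-values were not used. Columns of values without a sample numbered 0. The deposited peak lists give, per the file headers, fold enrichment (a ratio), −log10 p-values and q-values, and the nearest gene, called per library. For the ATAC libraries the study's methods give an average number of raw reads, and the peak lists hold no depth per library.

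Whole reads were recovered as FPKM times the mean normalized signal over mean FPKM, divided by the value of 1 read. Within 0.02 reads, 100% came out whole, and floors in reads cover counting error only. FPKM are not counts, so the test was limma 3.58.1 (R 4.3.3) on log2(FPKM + 0.1), with the cell line as block since Mock and DAC cells of a line share a culture, a trend, a filter of mean FPKM of at least 0.1 and Benjamini-Hochberg adjustment over all genes tested, tested on simulated data. A fold change on this scale understates that of low genes. P-values measure the spread between lines. Alternatives changed the pseudocount, filter, scaling, definitions, peak rules or lines. The kit was stranded, but whether counting used strand was not given in the sources used here, so reads of a member and an antisense gene may not be told apart.

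Members and lists were chosen with earlier results of these data known. Named genes were, by rule, the 6 largest and 6 smallest changes among members moving alike in 5 of 5 lines, the 2 highest silent members after DAC per line, the 6 silent in most lines, the 3 highest and 3 lowest in Mock, and 2 gained peaks per ATAC line. Promoter windows were read from GRCh37 with GENCODE v44lift37.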

Additional observations from a re-analysis of the deposited data

Results flagged for a closer look

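Among 42 groups of 5 lines examined, 3 had 1 line whose change stood far from the other 4, by Dixon's test of the gap to the nearest value over the range. Chance gives such a gap in about 1 in 20 groups, and 3 of 42 is not far from that. The log2 change of ZNF841 was 2.07 in A549 and at most 0.69 in the other lines. That of ZNF571 was 0.84 in A549, where the next was 0.48. ZNF568 changed by -0.44 in CL1-5, and the next lowest change was 0.21.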

How the results depend on the processing

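Called members stayed at 0 in each direction in every fit tried. Of the other main values, 119 recomputed ones stayed near those reported. At the unadjusted threshold 41 members were higher (18.3%, against 8.07% of all genes tested) and 6 lower. These numbers were 27 higher with a pseudocount of 1, 25 higher with a mean FPKM of at least 1, 10 higher and 11 lower with quantile normalization, 1 lower with FPKM rescaled to a common sum, and 1 lower with H1792 added. Without the replicate block (the cell line term) 0 were higher and 0 lower, and the members' median change was again 0.28. Leaving out 1 line at a time gave 16 to 38 higher and 2 to 6 lower. The 16 were 7.37%, against 6.97% (without H1299), and the 38 were 16.9%, against 7.43% (without CL1-5). The median change was 0.12 with quantile normalization, which moved the median of all genes from 0.07 to -0.03. The mean number of members at least 2-fold higher was 14.3 per line (6.40%, against 9.85% of all genes tested). It was 30.3 with a pseudocount of 0.01, with no all-gene share beside it. The mean regained share over lines was 24.9%, beside 16.7% for all silent genes. It was 43.4% with a pseudocount of 0.01, an alternative chosen after seeing the data, with no all-gene share beside it. Over 5 lines ZNF568 changed by 0.16 and by -0.078 with quantile normalization. ZNF146 changed by 0.10, with a range of -0.027 (without CL1-0) to 0.19 (without A549) when lines were left out. The cause of these shifts was not tested. With 1 library per line and treatment, and silent members at 0 to 12 reads in A549, differences of a few reads were not detectable at this depth.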
